A study of Homo sapiens with 33 samples.

Results

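HT29 cells, an established line from a human colorectal adenocarcinoma, were exposed for 24 h to Sagunja-tang at 100 µg/mL, the medium of 3 doses of this herbal formula, or to the DMSO vehicle. The libraries were chosen by their labels alone: 2 Sagunja-tang medium-dose libraries (replicates 2 and 3) and 3 vehicle libraries (replicates 1, 2 and 3), which are 5 of the 33 libraries of the series. The vehicle is labelled as 0.1% DMSO, while the design text of the series gives another percentage, so the solvent level is not settled. Sagunja-tang was applied as an extract made with 70% ethanol, at 20, 100 and 500 µg/mL, with 2 libraries (replicates 2 and 3) at each dose. The other extract groups belong to 3 more formulas, Samul-tang, Palmul-tang and Sibjeondaebo-tang, at matching doses, and all 33 libraries carry the same batch letter in their titles. The question behind the design is which transcripts differ between cells given an extract and cells given solvent, and whether the difference follows the dose. The labels do not say that replicates were separate cultures, so p-values here rest on a spread between samples that may be only technical.

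Sagunja-tang is a classical formula of Korean medicine built on ginseng, Atractylodes rhizome, Poria and licorice, and it is used for weakness of digestion. An extract of this kind holds saponins, flavonoids, polysaccharides and terpenoids, and no single target is known for it. HT29 cells are an epithelial tumour line that divides fast, carries a truncated APC gene and so signals constantly through beta-catenin, and keeps some secretory character, with mucin genes among those it expresses.

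The 2 medium-dose libraries held 42720862 and 39862558 assigned counts, the vehicle libraries held 31071786 to 35626397, and all 33 libraries held 28558865 to 49068018. Colon epithelial markers summed to 12450 to 13200 CPM (normalised read counts, scaled to a common library size) in the vehicle libraries and to 13110 to 13130 CPM at the medium dose. Fibroblast markers summed to at most 4.63 CPM and endothelial markers to at most 2.80 CPM, with COL1A2, COL3A1, DCN, PDGFRA, CDH5, KDR and EMCN at 0 in all 5 libraries. Leukocyte markers summed to 1348 to 1425 CPM in vehicle and 1531 to 1600 CPM at the medium dose. CD3D, CD3E and MS4A1 stood at 0 in all 5 of these libraries, and the sum was carried by the lysozyme gene LYZ, which epithelial cells also express. The column codes of the vehicle libraries begin differently from those of the extract libraries, the labels do not explain the codes, and exposure to an extract and whatever the codes stand for cannot be told apart.

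At the medium dose, 17 of 35 replication genes and 10 of 30 mitotic genes were slightly higher than in vehicle, against 8.4% of all genes tested, as were PGGHG, PAN2 and WDR90. CD55, a shield against complement, the cholesterol sensor INSIG1, the Wnt feedback genes AXIN2 and SOX9, and 5 of 8 membrane mucin genes were lower. Most changes were small: over the 11001 genes whose average log2 CPM reached 2, the median absolute log2 fold change was 0.106, with a median standard error of 0.062. In edgeR's quasi-likelihood test with Benjamini-Hochberg adjustment, 2867 of 17432 genes tested passed an adjusted p of 0.05, which is 16.4% of all genes, 1464 of them higher at the medium dose (8.4%) and 1403 lower (8.05%). Of these, 42 higher and 32 lower genes changed by at least 1 on the log2 scale, and 218 and 133 changed by at least 0.5. Without adjustment 5249 genes (30.1%) were under a p of 0.05. The 2 groups did not overlap in CPM for 7671 genes, or 44% of those tested.

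The count of calls rested on single libraries. Without medium-dose replicate 2 the test called 429 genes, without medium-dose replicate 3 it called 1723, and without vehicle replicates 1, 2 and 3 it called 3095, 1847 and 1549. With 1 library left in the medium-dose group, that library is assumed to vary like the other groups. There were 333 genes (1.91% of those tested) called with all libraries and again in each of the 5 fits that left out 1 library, 234 higher (1.34%) and 99 lower (0.568%). These 333 genes are described first, since each passed without any 1 of the 5 libraries. Genes named for a small p or a large change were chosen with no overlap between the groups. Their separation was fixed by that choice.

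**Figure D1:**
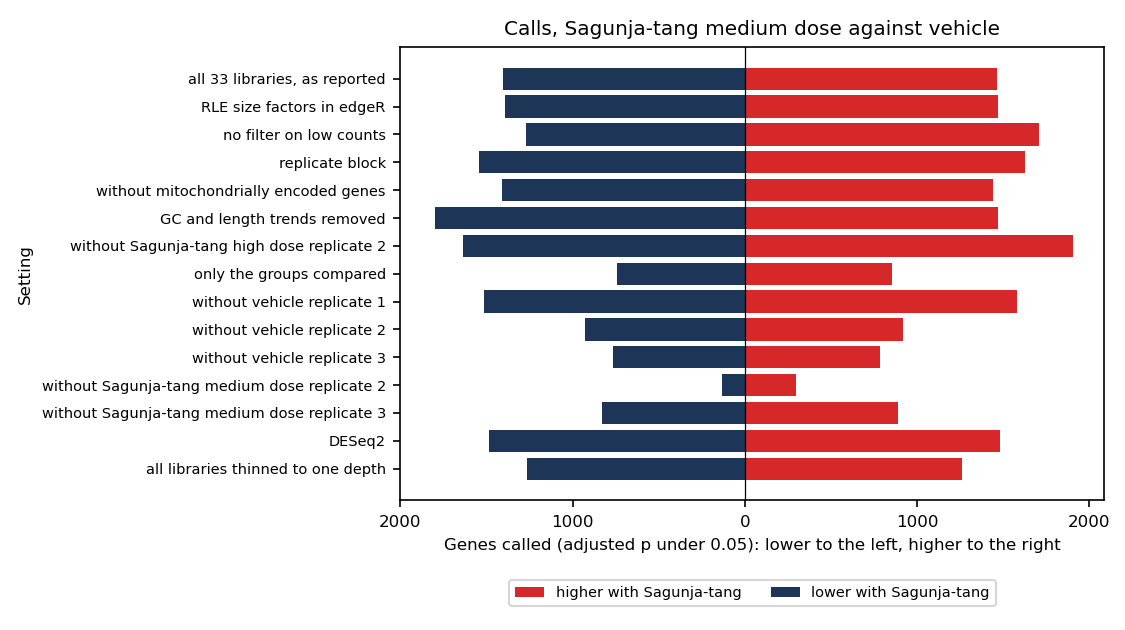
Number of genes past an adjusted p of 0.05 between medium-dose Sagunja-tang and vehicle, under each setting (rows); bars to the right are genes higher at the medium dose and bars to the left genes lower. The shortest bars are those of the fit without medium-dose replicate 2, with 298 genes higher and 131 lower.

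PGGHG, which encodes a glucosidase that trims the sugar on collagen hydroxylysine, had the smallest p of all rises. The gene lies at chr11:289135-296107 on hg38. Its level was 67.2, 67.3 and 68.7 CPM in the vehicle libraries and 123 and 128 CPM at the medium dose. The vehicle libraries lay within 2 CPM of each other, and both medium-dose libraries were far above them. The fitted fold was 1.85 (log2 fold change 0.89 ± 0.07, SE; adjusted p = 4.75e-08 in edgeR's quasi-likelihood test with Benjamini-Hochberg adjustment, as for each adjusted p below).

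PAN2, the catalytic subunit of a deadenylase that shortens poly(A) tails, lies at chr12:56316223-56334053. Its level was 25.8, 25.3 and 27.3 CPM in vehicle and 39.6 and 39.1 CPM at the medium dose, with no overlap, and the log2 fold change was 0.59 ± 0.05. WDR90, a protein of the centriole wall, lies at chr16:649311-667833. It stood at 42.2, 41.9 and 36.8 CPM in vehicle and at 70.4 and 66.5 CPM at the medium dose, again without overlap, and rose by 0.76 ± 0.07 on the log2 scale. TUBGCP6, a subunit of the gamma-tubulin ring complex from which microtubules grow, moved from 21.4 to 22.3 CPM in vehicle to 34.6 and 32.5 CPM.

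The other rises with the smallest p were of like size. MICALL2, an effector of Rab13 at epithelial junctions, rose by 0.60 ± 0.06 on the log2 scale. DDX11, a DNA helicase needed for sister chromatid cohesion, rose by 0.38 ± 0.04, ANO9, of the TMEM16 family of membrane proteins, by 0.70 ± 0.07, and PIDD1, the scaffold of the complex that activates caspase-2, by 0.55 ± 0.06. All vehicle libraries lay below both medium-dose libraries for each of these 4 genes, as the rule for naming them required.

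Among the 12 largest rises named by the rule on symbol, level and overlap, 5 more genes that are not readthrough transcripts were called in every leave-out fit. CCDC78, linked to centriole multiplication, was at 3.53, 4.14 and 5.28 CPM in vehicle and at 8.34 and 7.52 CPM at the medium dose (log2 fold change 0.88 ± 0.12). HSF4, a heat shock factor known from the lens, stood at 5.41 to 6.01 CPM in vehicle and at 10.1 and 10.4 CPM at the medium dose. The others were SPRN, MEGF6 and MAMDC4, which rose by 0.88 ± 0.17, 0.86 ± 0.12 and 0.85 ± 0.13 on the log2 scale from vehicle levels under 5 CPM.

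The largest fitted rise among called genes of standard symbol, whose average log2 CPM reached 2 and whose groups did not overlap, did not share this steadiness. ZACN, a zinc-activated channel, stood at 7.23, 0.115 and 1.77 CPM in the vehicle libraries and at 13.3 and 8.69 CPM at the medium dose, so the spread within vehicle was wider than the gap between the groups. The log2 fold change was 1.89 ± 0.58 (adjusted p = 0.0256), and 2 of the 5 leave-out fits called it. PXN-AS1 rose by 1.09 ± 0.23, and it is antisense to PXN, so that reads of the 2 genes can be told apart only if counting used the strand, which the sources do not state. ATP6V1G2-DDX39B and RTEL1-TNFRSF6B, also among those 12 rises, are readthrough transcripts that share their exons with neighbouring genes, and their division of reads is uncertain.

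**Figure D2:**
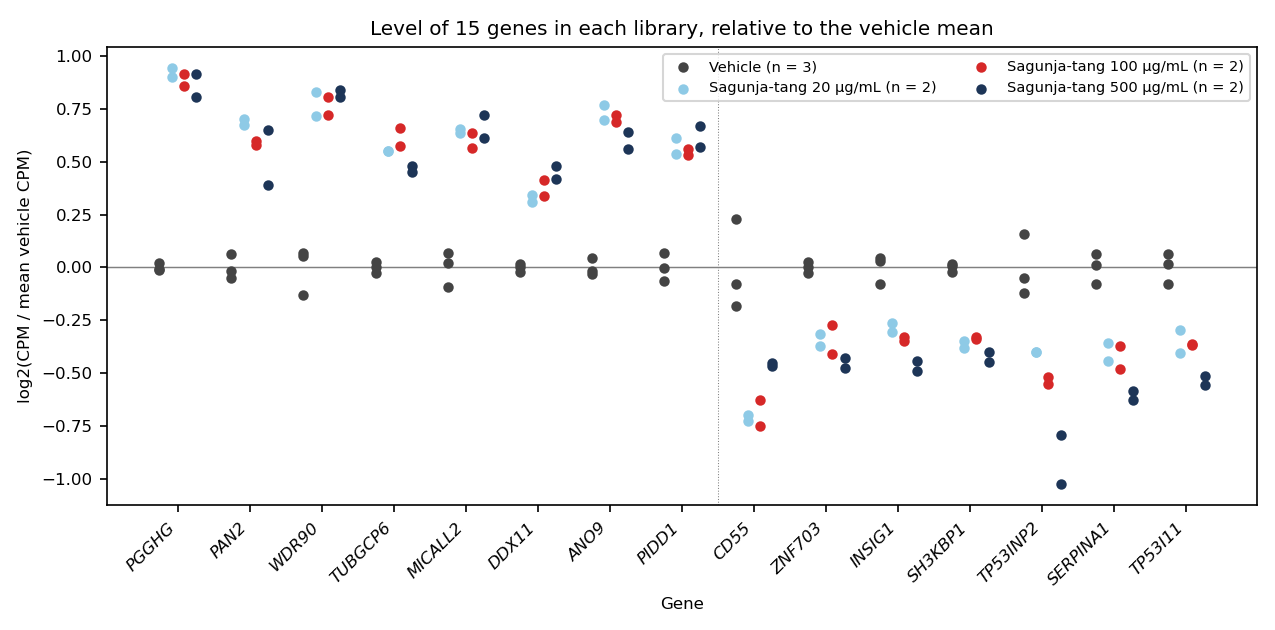
Level of 8 rises and 7 falls with the smallest p among genes called in every leave-out fit, as log2 of CPM over the mean vehicle CPM (vertical axis), with 1 point per library; black is vehicle, light blue, red and dark blue are Sagunja-tang at 20, 100 and 500 µg/mL. The red points of PGGHG lie near 0.9 and those of CD55 between -0.6 and -0.8. For all 15 genes no red point reaches the black ones, which the rule for choosing them required.

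The genes called in every leave-out fit were also described by their structure. Of 207 protein-coding genes that were higher in every leave-out fit and whose average log2 CPM reached 2, the median GC content of the longest transcript was 58.14%. It was 47.57% for 92 such genes that were lower and 47.92% for 10344 tested genes with a value. The median of the genes' median intron lengths was 390 nt for 203 higher genes with introns, 2130 nt for 91 lower genes and 1742 nt for 10034 tested genes. The higher genes also spanned less of the genome, with a median of 20150 nt against 53500 nt for the lower and 33170 nt for all. The contrast was weaker over all such genes called with all libraries. Their medians were 53.56% GC and 1031 nt for genes called higher, and 48.45% and 1921 nt for genes called lower. These are descriptions with no test.

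Length and GC content were examined across all genes as well. Over 11001 genes, the log2 fold change had a Spearman correlation of -0.122 with transcript length and 0.103 with GC content. The genes share their libraries, so these values are given as descriptions. Replicate 3 minus replicate 2 of the medium dose itself had a correlation of -0.298 with length and 0.159 with GC content. The 2 medium-dose libraries thus differ from each other along both. A fit with smooth GC and length trends removed from each library called 3269 genes, 1472 higher and 1797 lower. It kept 2644 of the 2867 genes called in the main fit, or 92.2%. All 234 higher and all 99 lower genes of the leave-out set were among its calls. Those genes were chosen for passing repeated fits of the same libraries, so that outcome was largely fixed by the choice. Whether GC or length trends bear on the structure of these genes was not tested.

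**Figure D3:**
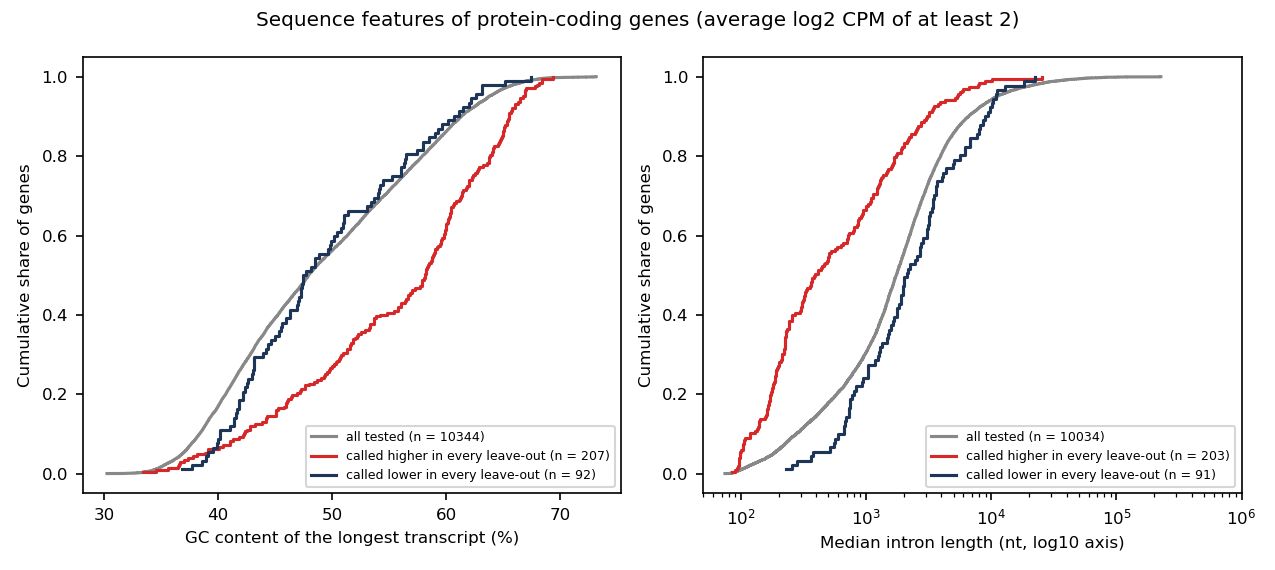
Cumulative share of protein-coding genes (vertical axes) against GC content in percent (left) and median intron length in nt on a log10 axis (right), for all tested genes (grey) and for genes called higher (red) or lower (blue) in every leave-out fit. The red curve lies to the right of grey on the left panel and to the left of it on the right panel, with medians of 58.14% and 390 nt.

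Of the falls, CD55 had the smallest p. It encodes decay-accelerating factor, which protects cells from complement, and lies at chr1:207321376-207386804. Its level was 75.8, 94.0 and 70.7 CPM in vehicle and 47.6 and 51.8 CPM at the medium dose. Vehicle replicate 2 was the highest, and both medium-dose libraries lay below all vehicle libraries. CD55 fell by 0.69 ± 0.08 on the log2 scale (adjusted p = 3.5e-06), to 0.620 of the vehicle level.

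INSIG1, the membrane protein that holds back sterol-regulated transcription factors when cholesterol is ample, stood at 202, 204 and 187 CPM in vehicle and at 155 and 157 CPM at the medium dose. The groups did not overlap, and the gene fell by 0.34 ± 0.05 on the log2 scale. SERPINA1, alpha-1 antitrypsin, fell from 447, 476 and 494 CPM to 338 and 365 CPM, with a log2 change of -0.43 ± 0.06.

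SH3KBP1, an adaptor in receptor endocytosis, fell by 0.33 ± 0.05 and the p53-inducible gene TP53I11 by 0.37 ± 0.05 on the log2 scale. TP53INP2, which acts in autophagy, fell by 0.54 ± 0.07. The transcription factor gene ZNF703 fell by 0.34 ± 0.04. In each of these 4 genes both medium-dose libraries were below all vehicle libraries, as the rule for naming them required.

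Among the 12 largest falls named by the same rule, TLE4, a Groucho corepressor that acts with TCF factors, was at 19.3, 21.4 and 15.1 CPM in vehicle and at 11.5 and 12.2 CPM at the medium dose (log2 fold change -0.65 ± 0.09). The long noncoding RNA UCA1 stood at 28.7, 31.9 and 37.2 CPM in vehicle and at 20.0 and 21.3 CPM at the medium dose (-0.66 ± 0.10). AKAP12, a scaffold for protein kinases, fell by 0.68 ± 0.12. All 3 were called in each leave-out fit. CERS6-AS1 fell by 1.10 ± 0.27 but is antisense to CERS6, and MTND4P12, MTATP6P1, RPS26P19 and RAC1P2 are pseudogenes with near-identical parents, while GCOM1 and POC1B-GALNT4 are readthrough transcripts, so the levels of these 7 are uncertain.

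Vehicle libraries were the same 3 for every extract in the series, and many of these differences were not particular to Sagunja-tang in level. All 3 vehicle libraries were below all 30 extract libraries for 124 of the 234 genes higher in every leave-out fit, which is 53%, and above all of them for 75 of the 99 lower genes, which is 75.8%. Over all genes called higher or lower the shares were 44.2% and 41.8%, and over all tested genes 4.87% and 4.68%. Called genes were chosen for a difference from these same vehicle libraries, so a share above that of all tested genes was partly fixed by that choice. Since each extract shares these vehicle libraries, the counts describe the vehicle libraries as much as the extracts.

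For each gene list below, the background is the 16.4% of all genes tested that were called, 8.4% higher and 8.05% lower. A share near that is no result about the members. The replication list holds 35 genes for helicase, clamp, polymerase and nucleotide supply, all measured. Of them, 17 rose, none fell, and 30 had a positive change. The median log2 fold change was 0.101, against 0.003 over all genes tested. Within the MCM ring that unwinds DNA, MCM3 stood at 184, 176 and 174 CPM in vehicle and at 211 and 209 CPM at the medium dose. Both medium-dose libraries were above all vehicle libraries, and MCM3 rose by 0.24 ± 0.04 on the log2 scale (adjusted p = 0.000186). MCM2 rose by 0.19 ± 0.04, MCM6 by 0.18 ± 0.04, MCM7 by 0.22 and MCM4 by 0.09, while MCM5 had a change of 0.10 that did not pass.

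POLD1, the catalytic subunit of polymerase delta, stood at 69.7, 68.0 and 67.1 CPM in vehicle and at 92.2 and 82.1 CPM at the medium dose. The groups did not overlap, and POLD1 rose by 0.35 ± 0.06. RFC2, of the clamp loader, rose by 0.25 ± 0.06, LIG1, which seals Okazaki fragments, by 0.25 ± 0.05, and the clamp gene PCNA by 0.22 ± 0.07. MCM3, POLD1, MCM2 and RFC2 were called in each of the 5 leave-out fits, PCNA in 1 of them. Without medium-dose replicate 2 the list had 6 genes higher and none lower, and the other 4 leave-out fits gave 13 to 17 higher and none lower.

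E2F factors drive many replication genes, so the upstream windows of the list were searched for 2 common forms of their site, TTTCCCGC and TTTGGCGC, on both strands, in the 250 bases before each RefSeq start. Of 15 called members with a promoter in the table, 7 held a match (46.7%), and of 16 members that were not called, 6 did (37.5%). Over all 35116 promoters of the same length, 677 (1.93%) held one. The share was thus high in the list whether or not a member was called. The windows of MCM3, LIG1, MCM6 and PCNA are shown since these members rose and show the site in both forms and orientations, with the match in capitals; in PCNA it reads on the other strand. They come from RefSeq on GRCh38.p14, minus strand, at chr6:52284863-52284962, chr19:48170405-48170504, chr2:135876480-135876641 and chr20:5126628-5126727. A stretch just after the RefSeq start was found in a GENCODE transcript of the gene for MCM3, LIG1 and PCNA but not for MCM6. The MCM6 start is thus less certain, and it is the only window shown with TTTGGCGC. Of the promoters searched, 10 of 15 called and 13 of 16 uncalled members passed this check. A match describes letters in the window and is not evidence of binding.
MCM3: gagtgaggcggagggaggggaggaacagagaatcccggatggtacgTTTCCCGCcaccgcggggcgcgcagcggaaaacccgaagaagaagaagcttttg
LIG1: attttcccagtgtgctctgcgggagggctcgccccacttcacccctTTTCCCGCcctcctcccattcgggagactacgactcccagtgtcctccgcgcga
MCM6: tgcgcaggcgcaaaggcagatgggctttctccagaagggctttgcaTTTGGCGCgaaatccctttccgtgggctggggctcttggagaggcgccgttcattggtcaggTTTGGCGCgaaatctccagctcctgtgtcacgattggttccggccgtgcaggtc
PCNA: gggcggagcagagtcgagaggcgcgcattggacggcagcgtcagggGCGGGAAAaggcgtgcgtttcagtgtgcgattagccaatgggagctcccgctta

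Mitotic genes were divided. Of 30 measured, 10 rose and none fell, with a median of 0.03 on the log2 scale, and 20 did not pass. CDK1, the kinase that starts mitosis, was at 79.9, 74.3 and 70.3 CPM in vehicle and at 102 and 96.6 CPM at the medium dose. The groups did not overlap, and CDK1 rose by 0.41 ± 0.06 (adjusted p = 7.17e-05). TOP2A, which untangles chromosomes, rose by 0.20 ± 0.03, the phosphatase gene CDC25C by 0.30 ± 0.05 and AURKB, the kinase of the chromosomal passenger complex, by 0.23 ± 0.05. PLK1 and PTTG1 had changes of -0.15 each that did not pass, and CCNA2 had a change of 0.00. The count was 4 to 10 higher in the leave-out fits, with 1 gene lower in the fit without medium-dose replicate 3. RNA of all cells was pooled in each library, so more cells in a phase and more RNA per cell cannot be told apart.

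Histone genes whose transcripts mostly lack poly(A) tails went the other way. Of 11 measured, 5 fell and 1 rose, with a median of -0.42. H2BC5 fell by 0.44 ± 0.13 and H2AC6 by 0.24 ± 0.07. H2AC8 stood at 0.382, 0.460 and 0.234 CPM in vehicle and at 0.114 and 0.0248 CPM at the medium dose, which are few reads. The leave-out fits called 2 or 3 of the list lower.

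**Figure D4:**
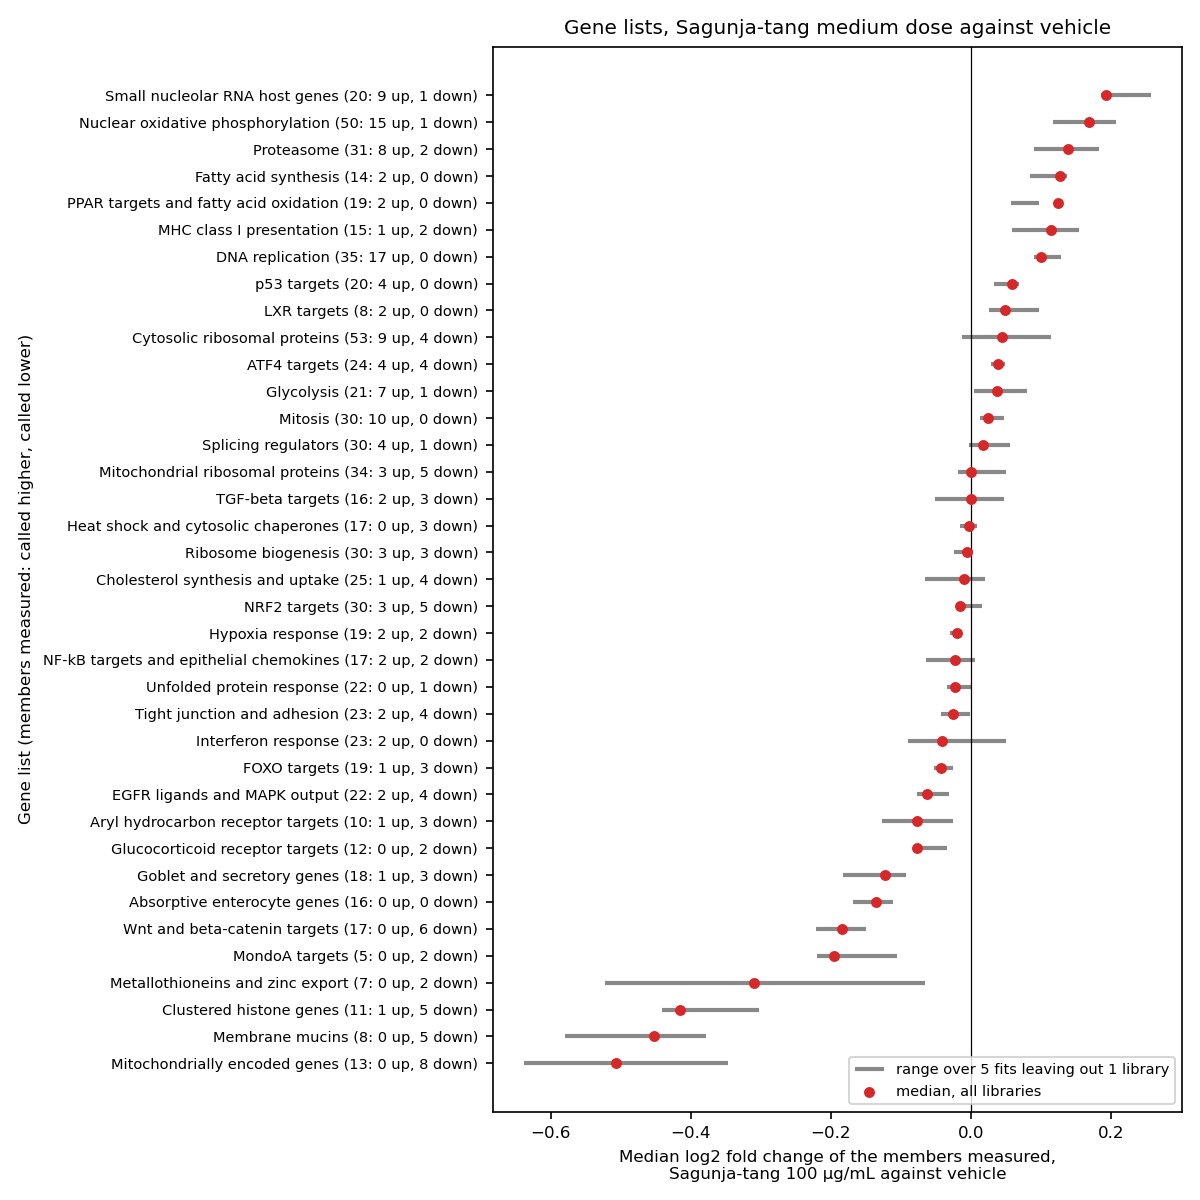
Median log2 fold change between medium-dose Sagunja-tang and vehicle over the measured members of 37 gene lists (red points), with the range of that median over the 5 fits that left out 1 library (grey bars). The list name is followed by the number measured, called higher and called lower; small nucleolar RNA host genes are at the top with 0.193 and mitochondrially encoded genes at the bottom with -0.507.

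The 13 protein genes of the mitochondrial genome were all lower on average at the medium dose, and 8 passed the test. MT-CO2, a subunit of cytochrome oxidase, stood at 8661, 9930 and 11226 CPM in vehicle and at 5994 and 6840 CPM at the medium dose. It fell by 0.63 ± 0.15 (adjusted p = 0.00709). The list's median was -0.507, no member was called without medium-dose replicate 2, and 1 was called without vehicle replicate 3. As a share of all counts, these genes made up 6.11 and 6.62% at the medium dose (6.37 ± 0.357, SD, n = 2) and 7.43, 8.48 and 9.80% in vehicle (8.57 ± 1.19, SD, n = 3). The difference of -2.21 percentage points gave p = 0.2 in an exact two-sided permutation test, whose 10 arrangements allow no p below 0.1.

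Of 50 nuclear genes of oxidative phosphorylation, 15 rose, 1 fell and 34 did not pass. A positive change was measured for 39 of them, with a median of 0.169. NDUFV1, the NADH-binding subunit of complex I, was at 108, 105 and 101 CPM in vehicle and at 135 and 127 CPM at the medium dose, and rose by 0.33 ± 0.07. ATP5MC3, of the ATP synthase ring, rose by 0.35 ± 0.08, and COX6A1 fell by 0.22. These calls rested on few libraries, since the list had none without medium-dose replicate 2, 3 higher and 2 lower without replicate 3, and 2 higher without vehicle replicate 3.

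Other lists of short, abundant transcripts showed the same dependence. Of 31 proteasome genes, 8 rose and 2 fell (median 0.139), among them PSMC3, an ATPase of the regulatory particle, by 0.22 ± 0.06. Of 53 cytosolic ribosomal protein genes, 9 rose and 4 fell (median 0.05), with RPL7A up by 0.29 ± 0.07 and RPL28 down, at -0.39 ± 0.09. Reads of ribosomal protein genes can be shared with their many pseudogenes. Without medium-dose replicate 2 neither list had a call, and without replicate 3 the ribosomal list had none higher and 9 lower. Of 34 mitochondrial ribosomal protein genes, 3 rose and 5 fell.

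Small nucleolar RNA host genes carry the guide RNAs of ribosome modification in their introns. Of 20 measured, 9 rose and 1 fell, with a median of 0.193. SNHG12 was at 19.0, 18.5 and 15.9 CPM in vehicle and at 26.0 and 25.5 CPM at the medium dose. The groups were apart, and SNHG12 rose by 0.53 ± 0.08 and was called in every leave-out fit. GAS5 rose by 0.30 ± 0.07 and SNHG16 fell by 0.17. The list kept 1 call without vehicle replicate 3 and 3 without medium-dose replicate 2. Of 30 splicing regulators, 4 rose and 1 fell, with SRSF5 up by 0.20 ± 0.04. Of 30 ribosome biogenesis genes, 3 rose and 3 fell.

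In glycolysis, 7 of 21 genes rose and 1 fell. PFKL, the liver isoform of phosphofructokinase, was at 71.7, 71.1 and 68.8 CPM in vehicle and at 86.8 and 84.4 CPM at the medium dose, and rose by 0.28 ± 0.06. SLC16A3, which exports lactate, rose by 0.51 ± 0.12, and GAPDH fell by 0.21. None was called without medium-dose replicate 2, and 3 were without vehicle replicate 3. Of 19 hypoxia genes 2 rose and 2 fell, and of 5 MondoA targets 2 fell, KLF10 by 0.23 ± 0.06 and ARRDC3 by 0.20 ± 0.06.

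The antioxidant programme of NRF2 did not move one way at this dose. Of 30 targets, 3 rose and 5 fell, with a median of -0.02. The calls were 1 higher and 1 lower without medium-dose replicate 2, and 0 and 3 without replicate 3. They were 5 and 3 without vehicle replicate 1, 1 and 3 without replicate 2, and 1 and 2 without replicate 3. FTH1, the heavy chain of the iron store ferritin, stood at 5572, 5360 and 5658 CPM in vehicle and at 4199 and 4438 CPM at the medium dose. Both medium-dose libraries were below all vehicle libraries, and FTH1 fell by 0.36 ± 0.05 and was called in every leave-out fit. The glutathione peroxidase GPX2 fell by 0.28 ± 0.07 and the epoxide hydrolase EPHX1 by 0.19 ± 0.05. The quinone reductase NQO1 rose by 0.16 ± 0.05, and HMOX1, the heme-degrading enzyme often used as a marker of the programme, had a change of -0.03 that did not pass.

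In the other stress lists, calls made up 4.55% to 40% of the members measured, against 16.4% of all genes tested. Of 10 aryl hydrocarbon receptor targets, 1 rose and 3 fell, with TIPARP down by 0.22 ± 0.06 and CYP1B1 by 0.35 ± 0.11. Of 17 heat shock genes 3 fell, among them the small chaperone HSPB1 by 0.47 ± 0.10 and the co-chaperone BAG3 by 0.39 ± 0.08, and of 7 metallothionein and zinc export genes 2 fell, MT1E and MT2A. Of 22 genes of the unfolded protein response 1 fell, and of 24 ATF4 targets 4 rose and 4 fell. Without medium-dose replicate 2, the heat shock, metallothionein, unfolded protein and aryl hydrocarbon receptor lists had no call, and 1 ATF4 target was called, higher.

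HT29 cells carry a mutant p53. Of 20 targets of the normal protein, 4 rose and none fell, so 20% were called, near the 16.4% of all genes tested. AEN, a nuclease, rose by 0.33 ± 0.07, DDB2, a sensor of ultraviolet lesions, by 0.24 ± 0.07, and FDXR by 0.36 ± 0.11. The cell cycle inhibitor CDKN1A had a change of -0.21 that did not pass. No member was called without medium-dose replicate 2.

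Lipid genes changed singly rather than as lists, and calls made up 16.4% of all genes tested. Of 25 cholesterol genes, 1 rose and 4 fell, among them INSIG1, SC5D by 0.30 ± 0.06 and MSMO1 by 0.29 ± 0.07, with a list median of -0.01. Of 14 genes of fatty acid synthesis 2 rose, ELOVL6 and FADS1. In fatty acid oxidation, ACADVL, which starts the breakdown of very long chains, was at 148, 148 and 138 CPM in vehicle and at 171 and 174 CPM at the medium dose. It rose by 0.25 ± 0.04 and was called in every leave-out fit. CPT1A was the other of 2 rises among 19. Of 8 LXR targets 2 rose, the sterol exporter ABCG1 by 0.50 ± 0.13 and MYLIP by 0.21 ± 0.07.

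Targets of beta-catenin were lower as far as they changed. Of 17 measured, 6 fell and none rose, with a median of -0.184. AXIN2, a feedback inhibitor of the pathway, was at 93.4, 103 and 84.8 CPM in vehicle and at 74.8 and 74.4 CPM at the medium dose. SOX9, a transcription factor of crypt cells, was at 179, 211 and 194 CPM in vehicle and at 150 and 154 CPM at the medium dose. Neither gene's groups overlapped, and they fell by 0.33 ± 0.05 and 0.36 ± 0.06 and were called in every leave-out fit. TCF7 fell by 0.30 ± 0.06, CD44 by 0.18 ± 0.05, RNF43 by 0.17 and PROX1 by 0.22. The stem cell marker LGR5 had a change of 0.01 and CCND1 of 0.05, and neither passed. The list had 2 calls without medium-dose replicate 2.

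Membrane mucins form the glycocalyx of the gut surface, and 5 of 8 measured fell while none rose, with a median of -0.452. MUC13 was at 157, 163 and 149 CPM in vehicle and at 133 and 131 CPM at the medium dose, and fell by 0.25 ± 0.04. MUC17 was at 11.4, 13.5 and 13.3 CPM in vehicle and at 6.88 and 6.65 CPM at the medium dose, and fell by 0.91 ± 0.20. MUC12 fell by 0.62 ± 0.16, MUC3A by 0.45 ± 0.13 and MUC20 by 0.25 ± 0.06, while MUC1 had a change of 0.11 that did not pass. MUC3A, MUC12 and MUC17 are neighbours with repeated sequence, so their reads may be divided with error. Without medium-dose replicate 2 only MUC13 was called of the list.

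Of 18 goblet and secretory genes, 3 fell and 1 rose. REG4, a secreted lectin, was at 35.3, 34.2 and 39.0 CPM in vehicle and at 25.2 and 26.8 CPM at the medium dose, and fell by 0.48 ± 0.07. AGR3, a protein disulfide isomerase of secretory cells, rose by 0.46 ± 0.09, and both were called in every leave-out fit. SPDEF, the factor that matures goblet cells, fell by 0.32 ± 0.08. None of 16 enterocyte genes passed the test in either direction. Of 23 junction genes, 2 rose and 4 fell, with plakoglobin (JUP) down by 0.31 ± 0.07, CLDN3 down by 0.28 ± 0.06 and CLDN4 up by 0.25 ± 0.06. Of 15 colon identity genes 1 rose and 3 fell.

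Signalling lists were split, and calls made up 16.4% of all genes tested. Of 22 EGFR and MAPK genes 2 rose and 4 fell, among them the feedback inhibitors SPRY4, down by 0.27 ± 0.06, and SPRED1, up by 0.19 ± 0.04. Of 17 NF-kB targets 2 rose and 2 fell, with the chemokine CXCL8 up by 0.42 ± 0.09 and TNFAIP2 up by 0.25 ± 0.05. Of 23 interferon genes 2 rose: STAT2, which carries the interferon signal, by 0.32 ± 0.05, and IFIT2 by 0.42 ± 0.12. Of 16 TGF-beta targets 2 rose and 3 fell, with SKIL up by 0.23 ± 0.04 and TGFB1 itself down by 0.43 ± 0.10. TNFAIP2, STAT2 and SKIL were called in every leave-out fit.

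The remaining lists held no shared direction in their calls or few calls. Of 15 genes of MHC class I presentation 1 rose and 2 fell, with B2M down by 0.22 ± 0.07. Of 19 FOXO targets 1 rose and 3 fell, with BCL6 down by 0.36 ± 0.08. Of 12 glucocorticoid targets 2 fell. None of the 5 fibroblast, 5 leukocyte and 3 endothelial markers that were measured passed the test.

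With the filter on low counts, no gene passed between the medium and the low dose. Between 100 and 20 µg/mL of Sagunja-tang, 0 of 17432 genes (0%) passed in edgeR's quasi-likelihood test and 0 passed in DESeq2, with 523 and 339 genes at an unadjusted p under 0.05. The 523 are 3% of those tested. The smallest adjusted p in edgeR's test was 0.326. Without the filter 81 genes passed in edgeR's test, 49 of them higher at the medium dose. Over the 11001 better expressed genes, the median absolute log2 fold change between the doses was 0.040, with a median standard error of 0.067.

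The intervals show how large a dose difference these libraries leave room for. PGGHG stood at 126 and 130 CPM at the low dose, and its medium-minus-low difference was -0.04 on the log2 scale (95% interval -0.20 to 0.13). WDR90 gave -0.01 (-0.17 to 0.15), CD55 gave 0.02 (-0.15 to 0.20) and INSIG1 gave -0.06 (-0.16 to 0.05). For these 4 genes the interval leaves out a dose difference as large as the difference from vehicle. All 13 mitochondrially encoded genes were higher at the medium than at the low dose, with a median of 0.226, and 2 of 23 interferon genes were, with a median of -0.168, but no member of either list passed with the filter on low counts. Without it 9 of the 13 mitochondrially encoded genes were called, all higher at the medium dose, and no interferon gene was. The 13 genes also passed the filter, so these calls depended on which other genes entered the fit. DESeq2, run without that filter, called 0 genes between these doses. Why the settings differ was not tested.

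**Figure D5:**
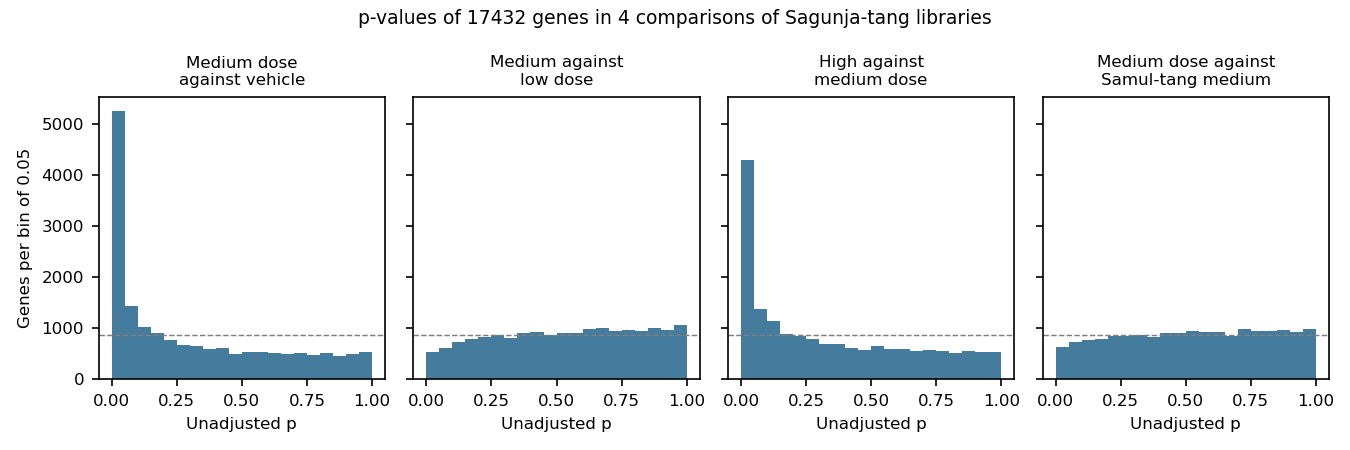
Distribution of unadjusted p over all tested genes in 4 comparisons of medium-dose Sagunja-tang (horizontal axes, bins of 0.05; vertical axis, genes per bin), with the dashed line at an even spread. Genes under 0.05 number 5249 against vehicle, 523 against the low dose, 4279 for the high against the medium dose and 618 against medium-dose Samul-tang.

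At 500 µg/mL the profile moved on, with NRF2 targets in front. Between the high and the medium dose, 1205 genes (6.91%) passed, 636 higher at the high dose (3.65%) and 569 lower (3.26%). Of the 30 NRF2 targets, 22 rose from the medium to the high dose and none fell, with a median of 0.299, and 10 were called in each fit that left out 1 library of these groups. AKR1B10, a reductase of aldehydes, stood at 92.3 to 105 CPM in vehicle, at 93.6 and 101 CPM at the low, 107 and 108 CPM at the medium and 200 and 177 CPM at the high dose. The first 3 groups lay close together and the high dose apart from them. AKR1B10 rose by 0.81 ± 0.06 from medium to high dose, and NQO1 by 0.47 ± 0.06. AKR1C1, AKR1C2 and AKR1C3 were also among the 5 largest rises named by the rule, though they are near-identical paralogs whose shared reads are uncertain.

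FTH1, which was lower at the medium dose than in vehicle, rose by 0.22 ± 0.06 from the medium to the high dose (5256 and 4770 CPM at the high dose), but did not pass with GC and length trends removed (adjusted p = 0.382). Falls from medium to high dose included the urea transporter SLC14A1 by 0.88 ± 0.16, the goblet mucin MUC2 by 0.69 ± 0.15 and the amino acid transporter SLC6A20 by 0.63 ± 0.08. MUC13 fell again, by 0.47 ± 0.05, to 93.6 and 96.7 CPM, and MUC20 by 0.44 ± 0.07. MEGF6, higher at the medium dose than in vehicle, fell back by 0.64 ± 0.13 to 3.64 and 3.46 CPM. The AXIN2 change of -0.04 and the PFKL change of 0.01 between these doses did not pass.

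The 2 high-dose libraries differed from each other more than the medium-dose ones. The standard deviation over genes of the log2 difference between replicates was 0.253 at the high and 0.124 at the medium dose, and the former had a Spearman correlation of 0.519 with transcript length. Without high-dose replicate 2, 47 genes passed between these doses, without high-dose replicate 3, 4434, and without medium-dose replicates 2 and 3, 104 and 371. A fit of these 2 groups alone called none, with 1310 genes at an unadjusted p under 0.05. DESeq2 over all libraries called 1774. With GC and length trends removed 797 genes passed, and only 561 of the 1205 calls (46.6%) were among them. Over the 11001 better expressed genes, the log2 fold change from medium to high dose had a Spearman correlation of -0.511 with transcript length. Longer transcripts thus tended to be lower at the high dose. How far this bears on the falls named above was not tested. In all, 35 genes (0.201%) were called in every leave-out fit, AKR1C2, AKR1B10, AKR1C1, NQO1, SLC6A20 and MUC13 among them.

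Samul-tang, another formula applied at the same 100 µg/mL, differed from medium-dose Sagunja-tang in 1 gene of 17432 (0.00574%), with 618 genes (3.55%) at an unadjusted p under 0.05. That gene was AKR1B10, at chr7:134527592-134541408, with 107 and 108 CPM under Sagunja-tang and 139 and 140 CPM under Samul-tang. The libraries of the 2 formulas were apart, and the log2 difference was -0.37 ± 0.06 (95% interval -0.49 to -0.24; adjusted p = 0.0298). It did not pass in any of the 4 fits that left out 1 of these libraries, where its adjusted p was 0.471 to 0.987, and its reads may be shared with the similar gene AKR1B15. All 30 NRF2 targets had a lower fitted level under Sagunja-tang than under Samul-tang, with a median of -0.168, against -0.001 over all genes tested. The libraries of the 2 formulas did not overlap for 25 of the 30, against 33.3% of all genes tested, and AKR1B10 was the only one that passed. The median absolute log2 fold change between the 2 formulas was 0.041 with a median standard error of 0.067.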

How the data were processed

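Total RNA from HT29 cells was made into stranded mRNA libraries and sequenced as 100 bp pairs on an MGI instrument, per the labels' protocols. The submitters' processing notes name FastQC 0.11.9, Trim Galore 0.6.5, the aligner STAR 2.7.3a, the quantifier RSEM 1.3.3 and the build hg38. The annotation release and the strand setting of counting are not given in the sources used here. The authors deposited expected counts per gene in 1 table of 273 columns, of which 33 match these samples and 240 were not used. Expected counts divide reads among genes with shared sequence, so paralogs, pseudogenes and readthrough transcripts are uncertain.

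Of the values, 9.45% were not whole and were rounded. Genes passing edgeR's filterByExpr with a minimum count of 10 were kept, 17432 of 60675. Counts were scaled by TMM and fitted in edgeR 4.0.16 (R 4.3.3) with 1 coefficient for each of 13 groups over all 33 libraries, quasi-likelihood F tests, Benjamini-Hochberg adjustment over all genes and a cutoff at 0.05. Residual degrees of freedom were 20 and prior ones 7, and the biological coefficient of variation common to all genes was 0.0489. Standard errors are the log2 fold change over the root of F, and 95% intervals use 27 degrees of freedom. CPM values are TMM-scaled. There were 4 comparisons: medium dose against vehicle, against low dose and against medium-dose Samul-tang, and high against medium dose.

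Named genes are the 12 largest rises and falls among called genes whose average log2 CPM reached 2, with a standard symbol and no overlap between groups, the 8 rises and 8 falls with the smallest p among those called in each of 5 leave-out fits, up to 4 members of each of 41 gene lists by smallest p, and the 5 largest each way in the other comparisons. Other members named beside them were chosen after their values were seen, to show which members of a list did or did not pass. Some named genes are not reported here. Members and lists were chosen with earlier results of these data known. Gene symbols come from a separate list of gene names, or from GENCODE 29 where that list had none. Positions, GC content and lengths come from GENCODE 29, and promoter windows from RefSeq on GRCh38.p14.

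Alternatives were RLE size factors, no filter on low counts, the replicate number as a block, mitochondrially encoded genes left out, GC and length trends removed, high-dose replicate 2 left out, only the groups compared, each library left out in turn and DESeq2 1.42.0. Thinning all libraries to one depth was added after seeing the data. The fits were tested on simulated data with known changes.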

Additional observations from a re-analysis of the deposited data

Results flagged for a closer look

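AKR1B10 was the 1 gene that differed between Sagunja-tang and Samul-tang at 100 µg/mL in the test of the difference itself, with a log2 fold change of -0.37 (lower under Sagunja-tang; 107 and 108 CPM against 139 and 140 CPM, adjusted p = 0.0298 in edgeR's quasi-likelihood test). It was lower in 2 of 2 Sagunja-tang libraries than in both Samul-tang libraries, and no fit that left out 1 of the 4 libraries called it.

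The step from the medium to the high dose of Sagunja-tang was a difference between 2 extract groups, without vehicle, and 1205 genes passed in edgeR's quasi-likelihood test, while 0 passed between the low and the medium dose (523 at an unadjusted p under 0.05, 0 in DESeq2). That the upper step is larger than the lower was not tested itself.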

How the results depend on the processing

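For the medium dose against vehicle (2867 genes called), the count stayed within 1.5 times under RLE size factors, no filter on low counts, the GC and length fit, DESeq2 and 4 further settings, fell to 1597 with only the groups compared, and ranged from 429 to 3095 over the 5 leave-out fits. Of the 2867 genes, 78.3% were called again without the filter, 82.1% with thinning and 51.6% with only the groups compared. In the remaining settings that left out none of the 5 libraries, 92.2% to 99.8% were. The 8 rises and 8 falls with the smallest p were required to be called, in the same direction, in all 5 leave-out fits. Their outcome in those fits was fixed by that choice, and misses there could come only from the other named genes. Each of the 38 genes named by size or p kept its direction in all 14 settings. All 38 stayed past the threshold without vehicle replicate 1 or with GC and length trends removed. Of them, 12 missed the threshold without medium-dose replicate 2, 7 without medium-dose replicate 3, 6 without vehicle replicate 2 and 8 without vehicle replicate 3, and 1 each with DESeq2, thinning, the replicate block and only the groups compared. For medium against low dose (0 called), no filter on low counts gave 81 calls. For high against medium dose (1205 called), the count was 2079 without the filter, 797 with GC and length trends removed and 0 with only these groups, and the leave-out fits gave 47 to 4434. For medium-dose Sagunja-tang against Samul-tang (1 called), it was 100 without the filter, 7 with only these groups, 2 in DESeq2 (AKR1B10 and UGT1A10, whose exons are shared within its locus) and 0 to 0 in the leave-out fits. Except where named, the cause of a shift was not tested.

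With the replicate number as a block, 3170 genes were called against vehicle and 1902 between high and medium dose. Medium-dose and vehicle libraries share 2 numbers, and the correlation of their deviations was 0.016 and 0.198 for the same-numbered pairs, so they are taken to share only a number. Where both groups have 2 libraries, the 2 same-numbered pairs give the same correlation by construction. It was 0.241 between medium and low dose, 0.127 between medium dose and Samul-tang and 0.0603 between high and medium dose. All of these were positive, but 1 value per comparison cannot settle whether the numbers mark shared sets. The main fit took them as shared numbers only. With 2 medium-dose libraries and a median standard error of 0.062, as large as much of the change itself (median 0.106), small changes could not be told from replicate spread.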
